A study of Homo sapiens with 4 samples.

Results

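Transcript levels of 4 histone deacetylases, HDAC2, HDAC3, HDAC4 and HDAC9, and of 2 genes with reported acetyltransferase activity, NCOA1 and ELP3, were described in human U2OS osteosarcoma cells. The genes were found by the symbol that the platform annotation gives to a probe set, and all probe sets of each gene were kept, which gave 8 of the 53617 probe sets on the array for 6 of 14884 named genes. The genes were picked because they had already been called changed between the same 4 arrays at an adjusted p under 0.05, so their own values are a description and carry no test. Cells had received either a scramble control siRNA or siRNA against BRPF3, each at 50 nM for 48 hours with a lipid reagent, and total RNA of each culture was read on 1 whole-transcript array. There were 2 arrays per group, called biological replicates in the labels, and the number of arrays limits the precision. All 4 cultures thus share the cell line, the transfection and the time, and U2OS is a tumour line kept in culture. Whether cultures of a group were handled separately is not stated, so the spread between arrays may be partly technical. BRPF3 itself was not analysed here, since no probe set carries its name, and the depletion stated in the labels was therefore not checked.

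Histone deacetylases remove acetyl groups from lysines and act mostly inside corepressor complexes. HDAC1 and HDAC2 serve the SIN3, NuRD and CoREST complexes, and HDAC3 serves the NCoR complex. The class IIa enzymes, HDAC4, HDAC5, HDAC7 and HDAC9, have weak activity of their own, shuttle between nucleus and cytoplasm under the control of kinases, and repress MEF2 transcription factors. NCOA1 (SRC-1) is a coactivator that nuclear receptors recruit together with p300 and CBP. ELP3 is the catalytic subunit of Elongator, which modifies the wobble uridine of certain transfer RNAs. BRPF3 works on the opposite side, as a scaffold for the acetyltransferase KAT7.

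The DNA around the first transcription start of the 4 deacetylases is shown because enzymes of 1 family lay on both sides of the control level. Each stretch holds 250 bases before the most upstream start in RefSeq and 10 bases from that start, in assembly GRCh38.p14, printed 5′ to 3′ on the strand of the gene. Capitals mark matches, on either strand, to the GC box GGGCGG, the CCAAT box CCAAT, the E-box CACGTG, the TATA box TATAAA and the MEF2 motif.
HDAC2 (chr6:113971139-113971398, minus strand): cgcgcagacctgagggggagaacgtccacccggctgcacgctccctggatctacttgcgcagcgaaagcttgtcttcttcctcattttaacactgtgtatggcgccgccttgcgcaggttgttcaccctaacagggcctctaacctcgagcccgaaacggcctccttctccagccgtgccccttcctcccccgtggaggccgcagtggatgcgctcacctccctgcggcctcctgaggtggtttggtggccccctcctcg
HDAC3 (chr5:141636840-141637099, minus strand): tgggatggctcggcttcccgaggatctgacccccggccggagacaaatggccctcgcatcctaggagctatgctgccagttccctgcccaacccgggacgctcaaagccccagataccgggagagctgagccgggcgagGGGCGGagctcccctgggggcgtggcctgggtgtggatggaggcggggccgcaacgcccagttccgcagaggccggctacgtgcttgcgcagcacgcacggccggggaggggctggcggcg
HDAC4 (chr2:239401640-239401899, minus strand): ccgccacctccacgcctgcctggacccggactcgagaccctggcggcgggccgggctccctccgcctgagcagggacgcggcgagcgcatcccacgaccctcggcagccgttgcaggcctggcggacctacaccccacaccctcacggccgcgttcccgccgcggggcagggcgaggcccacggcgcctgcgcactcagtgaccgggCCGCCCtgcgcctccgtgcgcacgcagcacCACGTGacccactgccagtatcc
HDAC9 (chr7:18086575-18086834, plus strand): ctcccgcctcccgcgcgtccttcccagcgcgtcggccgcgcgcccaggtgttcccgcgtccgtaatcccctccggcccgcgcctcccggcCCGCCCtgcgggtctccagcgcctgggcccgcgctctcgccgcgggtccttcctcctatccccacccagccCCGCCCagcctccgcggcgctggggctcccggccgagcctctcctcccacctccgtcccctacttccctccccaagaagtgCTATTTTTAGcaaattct
HDAC2 held none of the 5 motifs in this stretch. HDAC3 had 1 GC box, and HDAC4 had 1 GC box and, starting 13 bases before its start, 1 E-box. HDAC9 had 2 GC boxes and a MEF2 motif that began 8 bases before the start and ran across it. Over 35116 such windows of all genes in the table, 43.1% held the GC box, 6.6% the E-box and 2.86% the MEF2 motif, while 32.7% held the CCAAT box and 10.9% the TATA box. CpG dinucleotides numbered 19 in HDAC2, 24 in HDAC3, 33 in HDAC4 and 32 in HDAC9, against a median of 11 over all windows. The motifs are matches of letters and were not tested for binding, and the MEF2 motif was added to the search after the HDAC9 stretch was seen. RefSeq lists 5 starts for HDAC4 and 5 for HDAC9, and the arrays do not say which start a transcript used.

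Values below are log2 RMA values, a scale on which 1 unit is a doubling of signal. They rank arrays for 1 probe set and do not compare one gene's abundance with another's. Of 10696 genes bright enough to test, 15.8% changed between the groups, 6.32% higher and 9.44% lower (limma, Benjamini-Hochberg adjusted p under 0.05). These were 676 risen and 1010 fallen genes, a split that was 764 and 718 after quantile normalization and 766 and 736 after cyclic loess normalization. An unadjusted p under 0.05 in limma was reached by 3706 of the 10696 genes. Arrays of the groups did not overlap for 27.3% of the tested genes in the higher direction and for 35.9% in the lower direction. The 6 genes described here had to lie in those classes by their choice, 2 higher and 4 lower, so nothing is read from that count. Their differences were between 1.24-fold and 1.38-fold in size. The median difference over all tested genes was -0.03.

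Among class I enzymes, HDAC2 read 5.93 and 5.99 in controls and 5.61 and 5.56 after BRPF3 siRNA. Both BRPF3 siRNA arrays were lower than both control arrays, by 0.32 to 0.43 between single arrays. The group means differed by -0.37 ± 0.08 (SE from limma with variance shared over genes, as for every difference below, n = 2 and 2), which left 77.2% of the control signal. This SE borrows from all genes and is wider than the SD of 0.04 between the arrays of either group.

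A second probe set named for HDAC2 read 2.11 and 1.83 in controls and 2.15 and 2.28 after BRPF3 siRNA, so that its difference of 0.24 had the opposite sign. It was dim: 6.83% of all probe sets on the array had a lower mean, and it lay far under the intensity bound of 4.59 used for testing. The 20 nearest numbered probe sets of named genes on its chromosome all belonged to plus-strand genes, whereas HDAC2 lies on the minus strand. Around the brighter HDAC2 probe set 19 of 20 neighbours belonged to minus-strand genes, and for HDAC3, HDAC4, HDAC9 and NCOA1 18 to 20 of 20 were of the gene's own strand. The platform annotation, however, ties the dim probe set to a protein-coding HDAC2 transcript and the brighter one to a non-coding HDAC2 transcript. Which strand the dim probe set reads, and which transcripts either probe set reads, was not tested. The level of HDAC2 given above rests on the brighter one, which was taken for its brightness alone.

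HDAC3, the catalytic subunit of the NCoR complex, read 8.40 and 8.38 in controls and 8.09 and 8.07 after BRPF3 siRNA. The SD between arrays was 0.02 in controls and 0.01 after BRPF3 siRNA, and the groups did not overlap. The difference was -0.31 ± 0.08, with 80.6% of the control signal left. After quantile normalization the difference of HDAC3 was -0.26 and after cyclic loess normalization -0.25, against an SE of 0.08.

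Of the class IIa enzymes HDAC4 and HDAC9 lay on opposite sides. HDAC4 read 4.99 and 4.83 in controls and 4.37 and 4.51 after BRPF3 siRNA, a difference of -0.47 ± 0.10. Both BRPF3 siRNA arrays of this probe set were under the intensity bound of 4.59, the median of all probe sets. Dim signal can lie close to background and compress differences, but no background level was measured, so the size is uncertain. The second HDAC4 probe set, left out of the test as the dimmer one, read 4.57 and 4.36 in controls and 4.12 and 3.78 after BRPF3 siRNA. It was under the bound on all 4 arrays, so its difference of -0.52 is given as a value only. The dimmer probe set was not used to choose the gene, but it can share transcript sequence with the other and sits on the same arrays, so it is no independent sample. It varied more between arrays of a group, with an SD of 0.15 in controls and 0.24 after BRPF3 siRNA.

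HDAC9 read 5.61 and 5.60 in controls and 5.92 and 6.02 after BRPF3 siRNA. Both BRPF3 siRNA arrays were higher than either control, by 0.30 to 0.42 between single arrays, and the means differed by 0.36 ± 0.08, or 1.28-fold. HDAC9 makes transcripts with and without the catalytic domain, and its 1 probe set does not tell them apart.

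NCOA1 read 9.50 in each control culture and 9.79 and 9.86 after BRPF3 siRNA. The control arrays were nearly equal, and the BRPF3 siRNA arrays were both higher. Its difference was 0.32 ± 0.08, or 1.25-fold, and it was 0.41 after quantile normalization and 0.40 after cyclic loess normalization.

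ELP3 read 9.38 and 9.42 in controls and 9.11 and 9.02 after BRPF3 siRNA, a difference of -0.34 ± 0.08. The groups did not overlap, and 79.2% of the control signal was left. With quantile normalization the ELP3 difference was -0.27, and with cyclic loess -0.26.

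**Figure D1:**
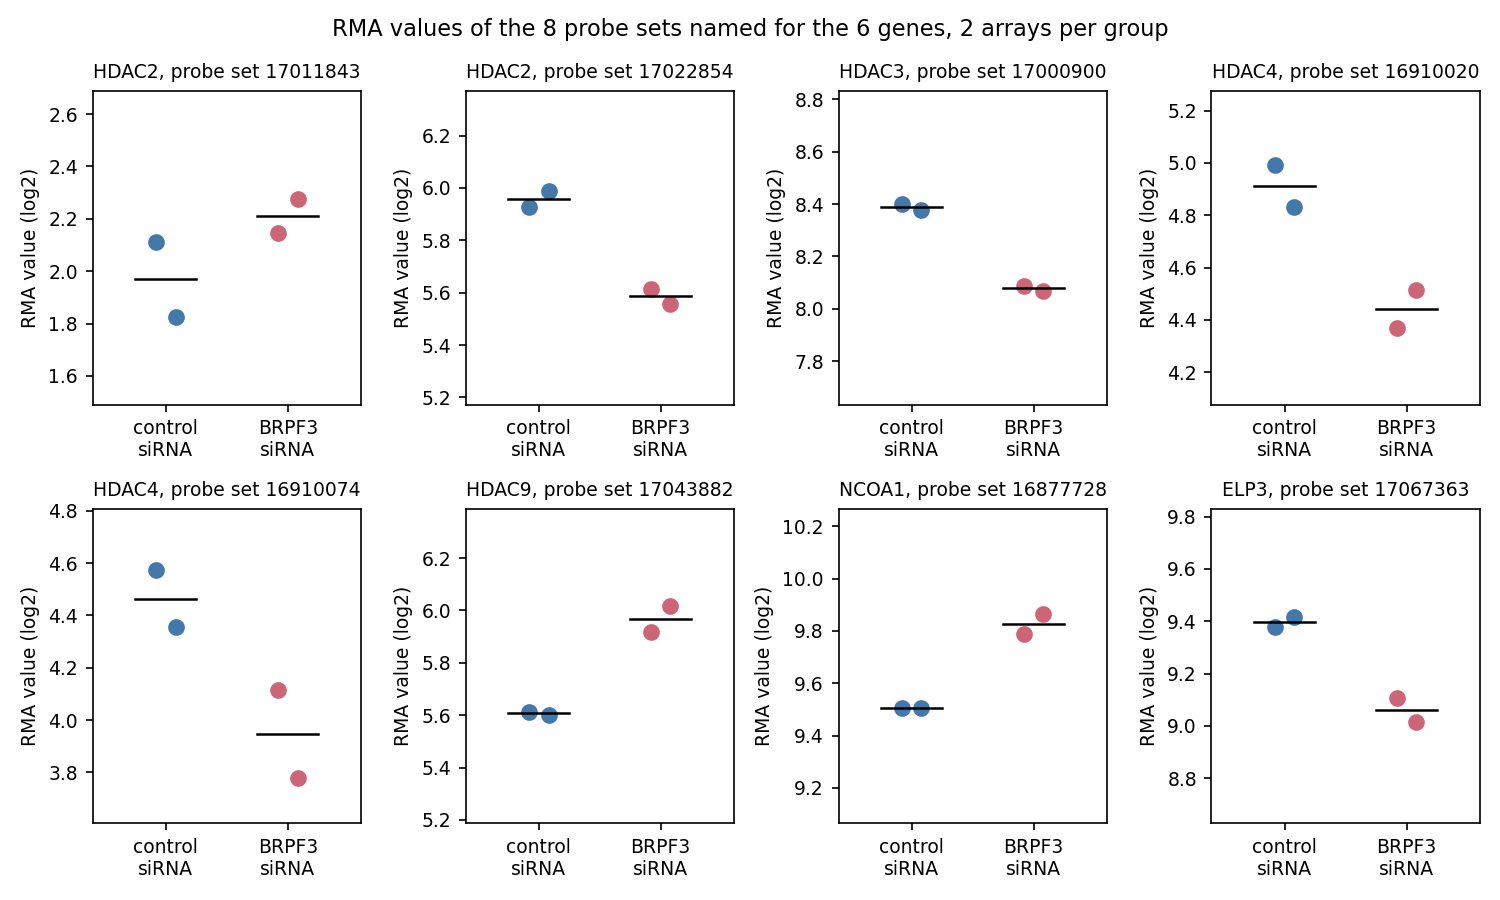
Log2 RMA values of each probe set named for the 6 genes on 2 control siRNA arrays (blue) and 2 BRPF3 siRNA arrays (red), with black lines at group means; each panel spans the same height in log2 units. HDAC2 (probe set 17022854), HDAC3, both HDAC4 probe sets and ELP3 sit lower and HDAC9 and NCOA1 higher after BRPF3 siRNA, while the dim HDAC2 probe set 17011843 goes the other way.

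Set against all tested genes, 5.58% had a lower difference than HDAC4, 9.83% than HDAC2, 11.9% than ELP3 and 13.6% than HDAC3. For NCOA1 the share was 90.2% and for HDAC9 92.4%. The 6 genes were therefore not at the extremes of the array. Of the members chosen by the threshold, HDAC3 was the nearest inside, with an adjusted p of 0.0473, and the nearest related enzyme outside it was HDAC1, with 0.0861 (limma, Benjamini-Hochberg). HDAC1, the close relative of HDAC2, read 9.21 in each control culture and 8.89 and 9.01 after BRPF3 siRNA, a difference of -0.26 ± 0.08. The side of the threshold thus separates values that differ by less than their SE.

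The other deacetylases and acetyltransferases are given for their sizes. The 6 genes were all the called members of an earlier list of such enzymes, so the lack of calls among the others of that list follows from the choice. Of the 7 other classical deacetylases 0 rose and 0 fell, with a median difference of -0.01. An unadjusted p under 0.05 in limma was seen for 2 of the 7, against 3706 of all 10696 tested genes. HDAC5, the class IIa relative of HDAC4, read 7.04 and 6.86 in controls and 7.18 and 7.36 after BRPF3 siRNA, a difference of 0.32 ± 0.11 (adjusted p = 0.0989). HDAC7 differed by -0.01 ± 0.08 (adjusted p = 0.943) and the cytoplasmic tubulin deacetylase HDAC6 by -0.01 ± 0.10 (adjusted p = 0.942). HDAC8, the class I enzyme outside the large complexes, differed by -0.07 ± 0.08 (adjusted p = 0.621). HDAC10 (0.12 ± 0.08) and HDAC11 (0.01 ± 0.08) did not pass either.

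Among 6 tested sirtuins, the NAD-dependent deacetylases, 0 rose and 0 fell. An unadjusted p under 0.05 in limma was seen for 1 of the 6, against 3706 of all 10696 tested genes. SIRT1 read 9.44 and 9.41 in controls and 9.24 and 8.87 after BRPF3 siRNA, so that a difference of -0.37 ± 0.13 did not pass (adjusted p = 0.113). It was -0.19 without BRPF3 siRNA replicate 2, and -0.56 without replicate 1, where it passed (adjusted p = 0.0433). Its BRPF3 siRNA arrays lay further apart from each other than those of HDAC2. SIRT2 had the highest moderated t of the sirtuins, at a difference of 0.08 ± 0.10 (adjusted p = 0.584).

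Of 12 other tested acetyltransferases and related enzymes outside the MYST family, 0 rose and 1 fell. That gene was NAT10, which the earlier list did not hold, an acetyltransferase of cytidine in RNA, which read 9.99 and 10.09 in controls and 9.67 and 9.69 after BRPF3 siRNA, a fall by 0.36 ± 0.08 (adjusted p = 0.0391). NAT10 lost its call after quantile and cyclic loess normalization. KAT2A (GCN5) was 0.22 ± 0.08 higher without passing (adjusted p = 0.110). The coactivators CREBBP (0.25 ± 0.09, adjusted p = 0.117), EP300 (0.24 ± 0.12, adjusted p = 0.208), KAT2B (0.27 ± 0.11, adjusted p = 0.158) and NCOA2 (0.21 ± 0.08, adjusted p = 0.120) had differences above 0 and did not pass. HAT1, which acetylates newly made histone H4, differed by -0.01 ± 0.08 (adjusted p = 0.909).

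**Figure D2:**
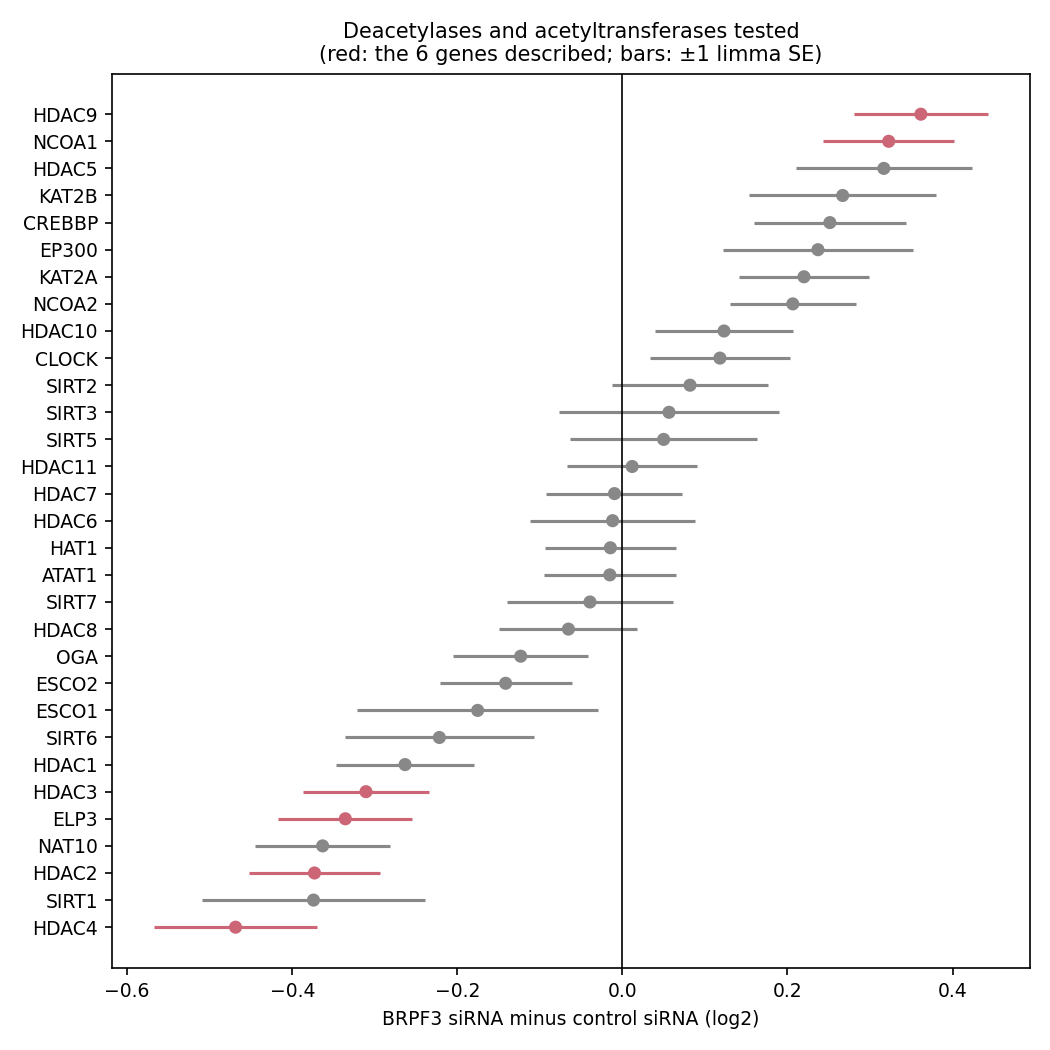
Difference between BRPF3 siRNA and control siRNA in log2 units for 31 tested deacetylases, sirtuins and acetyltransferases, with bars of 1 limma SE to each side; the 6 genes described are red and the other 25 grey. The red genes lie toward both ends, from -0.47 for HDAC4 to 0.36 for HDAC9, with SIRT1, NAT10, HDAC1 and HDAC5 beside them.

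The complexes in which HDAC2 and HDAC3 work were examined next, from lists that leave out the 6 genes themselves. Since all 6 were called, leaving them out lowers the share of called genes in the lists. The share below is therefore not read as lower than that of all tested genes. In the 12 gene lists, which together held 137 tested genes, 3 rose and 14 fell, or 12.4%, against 15.8% of all tested genes, and their median difference was -0.01. None of these 17 calls remained without control replicate 1 or without control replicate 2, settings in which limma called 0 of all 10696 genes (2446 and 2477 at an unadjusted p under 0.05). Without BRPF3 siRNA replicate 1 or replicate 2, 8 and 7 of the 17 remained, as did 12 after quantile normalization, 12 after cyclic loess normalization and 6 when dim genes were tested too.

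For HDAC3, 5 genes of the NCoR complex and its partners were tested, of which 0 rose and 1 fell, with a median of -0.15. The scaffold NCOR1 was not analysed here. ZBTB33 (Kaiso), a methyl-CpG binding repressor that recruits NCoR, read 7.08 and 7.26 in controls and 6.02 and 6.12 after BRPF3 siRNA, and fell by 1.10 ± 0.10 (adjusted p = 0.00824). Its loss of signal was larger than that of any of the 6 genes. TBL1X, a core subunit, was 0.28 ± 0.08 higher without passing (adjusted p = 0.0584), its relative TBL1XR1 differed by -0.18 ± 0.08 (adjusted p = 0.171) and GPS2, another core subunit, by -0.04 ± 0.08 (adjusted p = 0.772). TBL1X thus lay on the other side of 0 from HDAC3, without passing the main test. It passed after quantile normalization (0.33, adjusted p = 0.0458) and after cyclic loess normalization (0.32, adjusted p = 0.0451), where HDAC3 did not. With a trend in the prior (adjusted p = 0.0309) or a filter at the 75th percentile (adjusted p = 0.0184) TBL1X passed too.

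For HDAC2, 11 SIN3 complex genes were tested, of which 0 rose and 1 fell, with a median of -0.01. BRMS1, a SIN3-associated suppressor of metastasis, read 8.45 and 8.65 in controls and 8.07 and 7.99 after BRPF3 siRNA and fell by 0.52 ± 0.10 (adjusted p = 0.0271). The scaffold SIN3A differed by -0.0028 ± 0.08 (adjusted p = 0.981), and SAP30L had the highest moderated t (0.19 ± 0.08, adjusted p = 0.147). RBBP4 and RBBP7, histone-binding subunits shared with NuRD, differed by -0.21 ± 0.08 (adjusted p = 0.117) and -0.03 ± 0.08 (adjusted p = 0.810).

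In NuRD, which joins HDAC1 and HDAC2 to a chromatin remodeller, 1 of 11 genes rose and 1 fell, with a median of 0.15. The 2 called genes are both remodelling ATPases of the complex. CHD4 read 11.2 and 11.3 in controls and 10.67 and 10.74 after BRPF3 siRNA and fell by 0.54 ± 0.08 (adjusted p = 0.0181). CHD5, best known from neurons, read 6.24 and 6.10 in controls and 7.13 and 7.52 after BRPF3 siRNA, and rose 2.23-fold (1.15 ± 0.14, adjusted p = 0.0129). Another ATPase, CHD3, differed by -0.07 ± 0.08 (adjusted p = 0.551).

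Of 10 genes of the CoREST and MiDAC complexes 0 rose and 2 fell, with a median of 0.03. KDM1A (LSD1), the demethylase partner of HDAC1 and HDAC2 in CoREST, read 10.66 and 10.68 in controls and 10.34 and 10.37 after BRPF3 siRNA and fell by 0.32 ± 0.08 (adjusted p = 0.0445). TRERF1 of MiDAC fell by 0.52 ± 0.13 (adjusted p = 0.0473). Both calls were lost after quantile and cyclic loess normalization, where the KDM1A difference was as small as -0.22 and that of TRERF1 was -0.49 and -0.48. RCOR2 had the highest moderated t of this list (0.29 ± 0.08, adjusted p = 0.0703).

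For the class IIa enzymes HDAC4 and HDAC9, 23 partners and kinases were tested, of which 1 rose and 2 fell, with a median of -0.03. PRKD3, a protein kinase D that can phosphorylate class IIa enzymes and send them out of the nucleus, read 9.20 and 9.38 in controls and 8.27 and 8.36 after BRPF3 siRNA. It fell by 0.97 ± 0.10 (adjusted p = 0.00885). Its relatives PRKD1 (-0.43 ± 0.11, adjusted p = 0.0540) and PRKD2 (-0.26 ± 0.08, adjusted p = 0.0718) were lower without passing. MYOCD, an SRF coactivator that class IIa enzymes repress, fell by 1.35 ± 0.17 (adjusted p = 0.0126), and BCL6, a repressor that binds class IIa enzymes, rose by 0.38 ± 0.09 (adjusted p = 0.0423).

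Of the MEF2 factors themselves MEF2A differed by 0.11 ± 0.11 (adjusted p = 0.522) and MEF2D by 0.11 ± 0.08 (adjusted p = 0.390), and MEF2B and MEF2C were not analysed here. Among 12 genes known as MEF2 targets 0 rose and 1 fell, with a median of 0.09. HOMER1, a scaffold of glutamate receptor signalling, read 8.11 and 8.12 in controls and 6.99 and 6.72 after BRPF3 siRNA and fell by 1.26 ± 0.11 (adjusted p = 0.00756). KLF6 (0.58 ± 0.16, adjusted p = 0.0594), RHOB (0.48 ± 0.13, adjusted p = 0.0614), IRS1 (0.33 ± 0.09, adjusted p = 0.0605) and EGR3 (0.27 ± 0.08, adjusted p = 0.0632) were higher on both BRPF3 siRNA arrays and did not pass. Without BRPF3 siRNA replicate 2 the KLF6 difference was 0.35, and without replicate 1 it was 0.80. KLF6 passed after cyclic loess normalization (0.64, adjusted p = 0.0492) but not after quantile normalization (0.63, adjusted p = 0.0504). The risen genes of this list numbered 1 after quantile and 1 after cyclic loess normalization, 2 with the replicate block and 3 with a trend in the prior. In all, 7 of the 12 had differences above 0 and 5 below, against 4801 above and 5895 below over all tested genes. The 5 below were HOMER1, KLF2 (-0.16), XIRP1 (-0.16), BDNF (-0.08) and KLF4 (-0.04).

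For NCOA1, 15 nuclear receptors and coactivators were tested, of which 1 rose and 1 fell, with a median of 0.03. PPARG, the receptor of fat cell formation, read 5.13 and 5.21 in controls and 5.94 and 6.35 after BRPF3 siRNA and rose 1.97-fold (0.98 ± 0.14, adjusted p = 0.0165). PRMT1, an arginine methyltransferase that acts as secondary coactivator, fell by 0.38 ± 0.08 (adjusted p = 0.0332). CARM1, the methyltransferase that binds the NCOA family, differed by -0.13 ± 0.08 (adjusted p = 0.279). The coactivator NCOA4 was 0.22 ± 0.08 lower (adjusted p = 0.106) and the Mediator subunit MED1 0.13 ± 0.08 lower (adjusted p = 0.323), and neither passed. NCOA7 was 0.38 ± 0.10 higher without passing (adjusted p = 0.0504). Of the 15 genes, 8 had differences above 0 and 7 below, against 4801 and 5895 of all tested genes. The risen genes of this list numbered 2 after quantile and 2 after cyclic loess normalization. ESR1 was dim and differed by -0.23 ± 0.11 (adjusted p = 0.177). The receptors of glucocorticoids, vitamin D, retinoids and thyroid hormone were not analysed here.

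Of the 14 other genes of Elongator and of wobble uridine modification, 0 rose and 4 fell, against 9.44% of all tested genes (6.71% after quantile normalization, where 2 of the 14 fell). Of these 14, 11 had differences below 0, against 5895 of all 10696 tested genes. The median of the 14 was -0.18 against -0.03 over all tested genes. After quantile normalization the median over all tested genes was 3.6e-05, and that of the 14 was not computed. Of 4 other Elongator subunits 1 fell. ELP2, a subunit that joins ELP3 in the catalytic part of Elongator, read 7.02 and 7.20 in controls and 6.76 and 6.59 after BRPF3 siRNA, a fall by 0.44 ± 0.10 (adjusted p = 0.0449). ELP4 (-0.16 ± 0.09, adjusted p = 0.257), ELP5 (-0.20 ± 0.10, adjusted p = 0.220) and ELP6 (0.10 ± 0.12, adjusted p = 0.610), which form the accessory ring, did not pass.

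Thiolation of the same uridine in the cytosol runs from MOCS3 through URM1 to CTU1 and CTU2. MOCS3, the sulfur carrier activating enzyme, read 8.23 and 8.15 in controls and 7.69 and 7.77 after BRPF3 siRNA and fell by 0.46 ± 0.08 (adjusted p = 0.0242). CTU2, a subunit of the tRNA thiolation enzyme, read 7.34 and 7.28 in controls and 6.96 and 6.74 after BRPF3 siRNA and fell by 0.46 ± 0.10 (adjusted p = 0.0382). URM1, the carrier, was 0.30 ± 0.08 lower without passing (adjusted p = 0.0514), and CTU1 differed by -0.06 ± 0.08 (adjusted p = 0.642). TRMT112, the activator of the methyltransferase ALKBH8 and of other methyltransferases, fell by 0.36 ± 0.08 (adjusted p = 0.0382). The cysteine desulfurase NFS1 had the highest moderated t of the list (0.17 ± 0.08, adjusted p = 0.179). The mitochondrial enzymes GTPBP3 (-0.04 ± 0.11, adjusted p = 0.812), MTO1 (-0.01 ± 0.09, adjusted p = 0.962) and TRMU (0.01 ± 0.08, adjusted p = 0.963) lay close to 0.

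The number of fallen genes in this list was 2 after quantile normalization and 2 after cyclic loess normalization, where ELP2 (-0.42 and -0.41, adjusted p = 0.0542 and 0.0574) and CTU2 (-0.43 and -0.43, adjusted p = 0.0529 and 0.0519) lost their calls with nearly the same differences. It was 0 when dim genes were tested too. Without BRPF3 siRNA replicate 1 it was 1, and it was 0 without BRPF3 siRNA replicate 2 or without either control array. No test of the list as a whole was made.

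**Figure D3:**
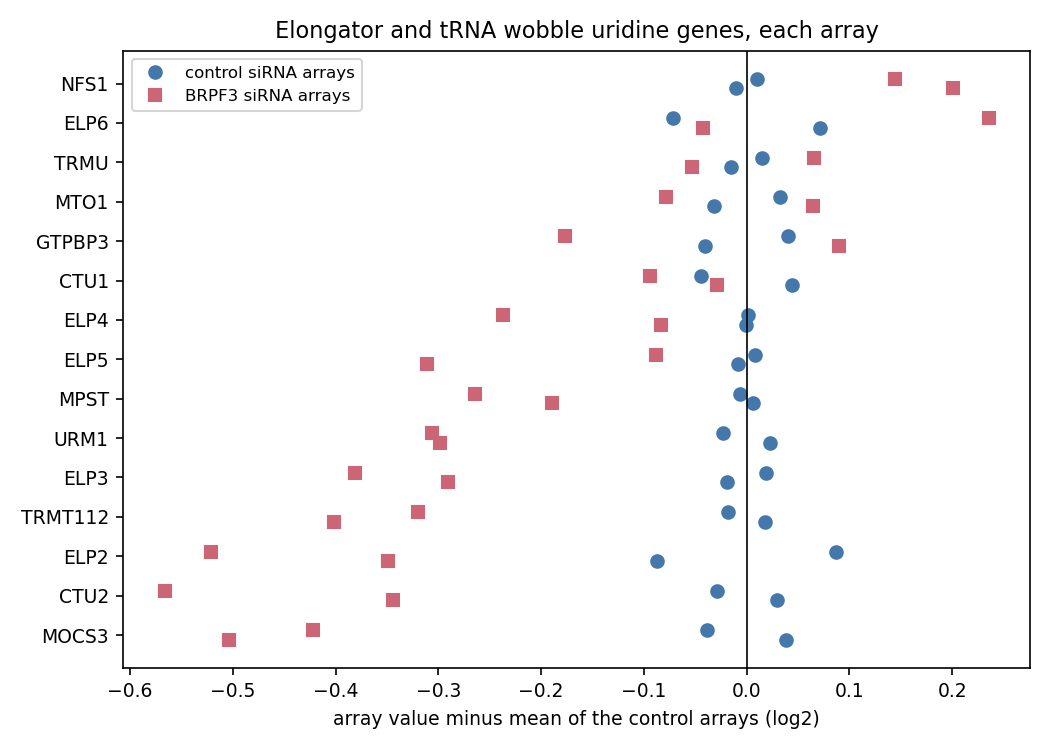
Each array's log2 value minus the mean of the 2 control arrays for ELP3 and 14 other genes of Elongator and tRNA wobble uridine modification; circles are control siRNA and squares BRPF3 siRNA arrays. For MOCS3, CTU2, ELP2, TRMT112, ELP3, URM1, MPST, ELP5 and ELP4 both squares lie to the left of both circles. Of all tested genes 35.9% were separated in that direction. For NFS1 both squares lie to the right. Circles and squares overlap for CTU1 and ELP6 and for the mitochondrial enzymes GTPBP3, MTO1 and TRMU.

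Of 14 tested acetyl-lysine readers, mostly bromodomain proteins like BRPF3, 0 rose and 0 fell, against 15.8% of all tested genes called. Their median was -0.02. In limma 1 of the 14 had an unadjusted p under 0.05, against 3706 of all 10696 tested genes. TRIM33 had the highest moderated t (0.08 ± 0.08, adjusted p = 0.556) and BRWD3 the lowest (-0.28 ± 0.11, adjusted p = 0.142). BRD2 differed by 0.02 ± 0.09 (adjusted p = 0.911).

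The nearest tested genes before and after each of the 6 genes were read to see whether a whole neighbourhood differed. Genes were ordered by start position, here the lower coordinate whatever the strand. For the minus-strand genes HDAC2, HDAC3 and HDAC4 that is not the transcription start. No limit was set on their distance, and untested genes can lie between. Of these 12 neighbours 0 changed, against 15.8% of all tested genes. An unadjusted p under 0.05 in limma was seen for 3 of the 12, against 3706 of all 10696 tested genes. The lowest adjusted p among the neighbours was 0.0847. The lowest was that of NT5DC1, the next tested gene after HDAC2 by start, at -0.34 ± 0.11. That value was -0.08 (adjusted p = 0.520) when all probe sets of a gene were averaged and -0.22 without control replicate 2. MARCKS, on the other side of HDAC2, differed by 0.08 ± 0.10 (adjusted p = 0.623). Beside NCOA1, ITSN2 differed by -0.28 ± 0.10 (adjusted p = 0.118) and PTRHD1 by 0.26 ± 0.09 (adjusted p = 0.104), on opposite sides of 0. Next to HDAC3 lay DIAPH1 (-0.19 ± 0.10, adjusted p = 0.228) and RELL2 (0.02 ± 0.10, adjusted p = 0.886). HDAC4 had TWIST2 (0.14 ± 0.12, adjusted p = 0.470) and the microRNA MIR4440 (0.04 ± 0.11, adjusted p = 0.824), which lies inside the HDAC4 gene rather than beside it. HDAC9 lay between SNX13 (-0.04 ± 0.10, adjusted p = 0.816) and FERD3L (-0.20 ± 0.15, adjusted p = 0.392). ELP3 lay between PBK (-0.01 ± 0.08, adjusted p = 0.939) and PNOC (-0.10 ± 0.08, adjusted p = 0.429). TWIST1, closer to HDAC9 than FERD3L, was under the intensity bound and untested, at 2.89 and 3.04 in controls and 3.42 and 3.46 after BRPF3 siRNA.

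Profiles over the 4 arrays, each centred on its gene's mean, were compared by the root mean square distance in log2 units. The genes closest to HDAC2 were ETV6 (0.0015) and BNIP3 (0.0041), to HDAC3 ZNF114 (0.0045) and UBE3B (0.0062), and to HDAC4 ZNF557 (0.021) and GALK2 (0.023). HDAC9 was closest to TMOD1 (0.0035) and TEX2 (0.0068), NCOA1 to N4BP2 (0.0050) and CD177 (0.0061), and ELP3 to WDR83 (0.0098) and SPATA6 (0.011). Such likeness was common: within a distance of 0.05 lay 282 genes for HDAC2, 444 for HDAC3, 44 for HDAC4, 193 for HDAC9, 276 for NCOA1 and 307 for ELP3. With 4 arrays these distances describe a step between the groups and little else.

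Markers of cell identity were read on the same arrays. Of 4 named mesenchymal and osteoblast markers 3 were above the intensity bound, with values summed over all 4 of 30.5 to 30.6 in controls and 30.9 to 31.0 after BRPF3 siRNA. VIM and FN1 were bright, from 10.35 to 10.75 on the 4 arrays, and RUNX2 read 6.31 to 6.56. VIM (0.13 ± 0.08), FN1 (-0.03 ± 0.08) and RUNX2 (-0.16 ± 0.09) did not pass. The higher sum rests on TWIST1, which was under the bound, at 2.89 and 3.04 in controls and 3.42 and 3.46 after BRPF3 siRNA. Of 7 named epithelial markers 5 were above the intensity bound, with values summed over all 7 of 42.6 in each control culture and 42.4 to 42.5 after BRPF3 siRNA, and KRT18 fell by 0.49 ± 0.09 (adjusted p = 0.0231). EPCAM was 0.27 ± 0.08 higher without passing (adjusted p = 0.0754). Of 4 named leukocyte markers 2 were above the bound, with summed values of 22.0 to 22.8 in controls and 20.7 to 20.9 after BRPF3 siRNA, and LAPTM5 fell by 0.88 ± 0.13 (adjusted p = 0.0170). That sum also holds CD53, under the bound, at 3.70 and 3.52 in controls and 2.80 and 2.75 after BRPF3 siRNA. The remaining leukocyte markers did not go down. CD68, above the bound, differed by 0.01 ± 0.14 (adjusted p = 0.959). CD14, under the bound, read 4.10 and 3.99 in controls and 4.14 and 4.16 after BRPF3 siRNA. Of 4 endothelial markers 2 were above the bound, with sums of 19.8 to 20.3 and 19.5. The defining markers PTPRC and CDH1 were not analysed here, and the part of these markers in the results above was not tested.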

How the data were processed

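Per the labels' protocols, biotin-labelled RNA from 4 U2OS cultures was hybridised to Affymetrix whole-transcript arrays. The authors deposited log2 values made with RMA, per the submitters' processing notes, for 53617 probe sets. The version and settings of RMA: not given in the sources used here. RMA is meant to equalize arrays, so a shift common to all transcripts is removed. The deposited values were still not equal in distribution, since a further quantile normalization changed differences. It moved NCOA1 from 0.32 to 0.41 and ELP3 from -0.34 to -0.27, while HDAC2 stayed at -0.37. The reason was not tested.

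A platform annotation names 16098 probe sets with 1 symbol each. Genes were tested on the probe set with the highest mean, and 10696 genes with a mean at or above 4.59, the array's median, were kept. BRPF3 siRNA was set against control by limma 3.58.1 (R 4.3.3, lmFit and eBayes, two-sided), adjusted by Benjamini-Hochberg over all tested genes. The fit had 2 residual and 3.81 prior degrees of freedom. An exact permutation test of 2 against 2 arrays has 3 splits and cannot go below 0.333. The procedure was tested on simulated data.

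The members and lists were chosen with earlier results of these data known. The rule named the 6 genes, each listed gene past the test, the highest and lowest of each list by moderated t, chromosome neighbours and the closest profiles. Other genes named with their values (such as CREBBP, EP300, RHOB, PRKD1, ELP4 and URM1) and TWIST1 were named after their values were seen. Alternatives were other normalizations, filters, variance priors, probe set rules, thresholds, a replicate block and leaving out each array. Promoter stretches are RefSeq's and matched 5 of the 6 genes.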

Additional observations from a re-analysis of the deposited data

How the results depend on the processing

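The number of changed genes, 1686, became 2645 with a trend in the prior, 409 when dim genes were tested too and 2877 at an adjusted p under 0.1. Dropping 1 array gave 0 to 791, the lone array being taken to vary as the remaining pair does. The share that fell, 59.9%, was 48.4% after quantile normalization (764 rose, 718 fell) and 49.0% after cyclic loess (766 and 736). Of the listed genes, the 3 risen became 7 after quantile and 7 after cyclic loess normalization, 5 with the replicate block, 14 with a trend, 14 with a filter at the 75th percentile and 15 at an adjusted p under 0.1, and 0 to 3 with an array left out. The 14 fallen became 9 after quantile and 9 after cyclic loess normalization, 4 without a filter and 0 to 7 with an array left out. With the replicate block 1604 genes changed and 13 of 17 listed calls remained, but ELP2 and TRMT112 lost theirs (2 of the 4 Elongator list calls). Arrays with the same number deviated together with a correlation of 0.14, but no label ties them, so the number was not taken as a pairing.

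The 6 genes kept their sign in the 13 to 15 settings run for each, but not their calls. For most settings the sign was fixed beforehand. The block, variance prior, filter and threshold leave the difference itself as it is. Leaving out an array could not reverse it, since the arrays of the groups did not overlap. Only the other normalizations could have changed a sign. Of the 6, 4 passed after quantile and 4 after cyclic loess normalization (not HDAC3 and ELP3), 3 with the replicate block (not HDAC3, NCOA1 and ELP3) and 5 with a trend (not HDAC4). With dim genes tested too, or with any array left out, 0 passed. HDAC2 and HDAC4 had no value when probe sets were averaged, since their means then fell under the bound. The HDAC2 probe set of opposite sign therefore entered none of the settings. Uncalled genes changed sign near 0: SNX13 was 0.0151 after quantile and 0.0127 after cyclic loess normalization, and PBK 0.0750 and 0.0760. Without 1 array SNX13 ran from -0.152 to 0.0736, PBK from -0.0504 to 0.0304, SIRT2 from -0.0140 to 0.178, MARCKS from -0.0352 to 0.194, RELL2 from -0.0838 to 0.130 and MIR4440 from -0.0699 to 0.148. Without changing sign, FERD3L ran from -0.39 to -0.02, TWIST2 from 0.01 to 0.27 and DIAPH1 from -0.28 to -0.09. The cause was not tested. Both BRPF3 siRNA arrays of HDAC4 lay under the bound.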
